A study of Homo sapiens with 24 samples.

Results

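A set of 10 genes of the ADAMTS family was followed in 3 human breast cancer cell lines at low and high glucose: ADAMTS1, ADAMTS3, ADAMTS5, ADAMTS6, ADAMTS7, ADAMTS9, ADAMTS10, ADAMTS13, ADAMTS15 and ADAMTS17. They were taken by symbol from a table of 18889 genes, in which all 10 were found. The table lists 18 of the 19 human ADAMTS genes, so 8 further family members were used for comparison. ADAMTS15 was selected for its lower level at high glucose in every line, and the glucose values of all 10 genes are therefore given as a description, without p-values. How many of them met the call rule is stated once, beside the share of all genes, and supports nothing. RNA sequencing was done on HCC1500, MDA-MB-175 and ZR-75-30, which are estrogen receptor-positive (ER+) breast carcinoma lines. Each line was grown for 48 hours in 5 mM glucose (low, the control) or 25 mM glucose (high, modelling hyperglycemia), with 4 replicate cultures per group and 24 cultures in all. Each line stands for 1 tumor, and replicates are cultures of the same line, so errors and p-values measure the spread between cultures. No osmolarity control was analysed here, and glucose and osmolarity cannot be told apart.

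ADAMTS proteins are secreted zinc metalloproteases that carry thrombospondin repeats and act on the extracellular matrix. ADAMTS1, ADAMTS5, ADAMTS9 and ADAMTS15, with ADAMTS4 and ADAMTS20, cut large proteoglycans such as versican and aggrecan. ADAMTS3 trims procollagen and matures the lymphatic growth factor VEGF-C, ADAMTS7 cuts cartilage oligomeric matrix protein, ADAMTS13 cuts von Willebrand factor in plasma, and ADAMTS6, ADAMTS10 and ADAMTS17 are linked to fibrillin microfibrils. In breast carcinoma, several family members are known to be expressed by tumor cells as well as by stroma.

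Values are normalized read counts as deposited. Whole reads per culture, recovered from them, summed to between 9140024 and 17998819, and 1 read was worth 0.318 to 0.763 normalized counts. In HCC1500 the low glucose cultures had 13190982 to 17998819 reads and the high glucose cultures 9423472 to 12140912, without overlap. HCC1500 high glucose replicate 3 stood apart: over 12616 genes, its deviation from the other 3 high glucose cultures had a Spearman rho of -0.55 with exon length, given as a description because all points share 1 library. Differences with glucose in HCC1500 are given with and without that culture, and the part of depth or of this culture in them was not tested. All 6 luminal epithelial markers, among them the estrogen receptor gene ESR1, had a mean of at least 10 in every group. The summed level of the 7 fibroblast markers was 78.6 to 261.7 in any culture. The collagen gene COL1A1 alone was at 67.1 to 255.7, while THY1 was listed at 0 in every group. In MDA-MB-175, 3 of the 7 (COL1A1, COL1A2 and COL3A1) had a mean of at least 10 in both conditions. In the other lines only COL1A1 did. Of 4 listed leukocyte markers only CD68 was in the table. It was at 0.67 to 8.32 in all groups except ZR-75-30 at high glucose, where it was at 33.6 to 43.9, and 1 gene does not identify a cell type. The 2 endothelial markers in the table summed, in MDA-MB-175, to 32.0 to 38.7 (low glucose) and 47.3 to 58.2 (high glucose), and to at most 1.37 in the other lines. The part of these markers in the results was not tested.

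ADAMTS15 (ENSG00000166106) lies on chromosome 11 of GRCh37, from 130318540 to 130346540 on the plus strand. In MDA-MB-175 the low glucose cultures had 61.8, 61.6, 63.8 and 63.1 normalized counts and the high glucose cultures 30.4, 19.9, 29.7 and 23.1. Every high glucose culture lay below every low glucose culture, and the group means were 62.6 ± 1.03 and 25.8 ± 5.10 (SD, n = 4). The log2 difference between high and low glucose was -1.27 ± 0.14 (SE) on the log2(value + 1) scale, with a 95% interval of -1.57 to -0.96. In bulk RNA, a lower level in fewer cells and less RNA per cell cannot be told apart.

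In ZR-75-30, ADAMTS15 was at 178, 193, 190 and 170 at low glucose. The high glucose cultures had 49.0, 48.6, 50.1 and 52.1, and the conditions were far from overlapping. Means were 182.8 ± 10.4 and 49.9 ± 1.57 (SD, n = 4), with a log2 difference of -1.85 ± 0.08 (SE; 95% interval -2.03 to -1.67). Of the 3 lines, ZR-75-30 had the widest gap between conditions and, in the deposited values, the highest mean at low glucose.

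In HCC1500, ADAMTS15 was at 173, 179, 160 and 180 at low glucose. At high glucose it was at 76.7, 73.1, 90.6 and 83.5, where 90.6 is replicate 3. Again no high glucose culture reached a low glucose culture. Means were 173 ± 9.45 and 81.0 ± 7.72 (SD, n = 4), with a log2 difference of -1.09 ± 0.10 (SE; 95% interval -1.33 to -0.86). Without replicate 3 it was -1.15 ± 0.07 (SE).

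The level at high glucose was thus 41.2% of that at low glucose for MDA-MB-175, 27.3% for ZR-75-30 and 46.7% for HCC1500 (44.9% without replicate 3). These log2 differences stand beside median differences over all tested genes of -0.02, 0.01 and -0.06 (-0.12 in HCC1500 without replicate 3). In order of level in the deposited values, the 6 groups ran from MDA-MB-175 at high glucose through ZR-75-30 at high, MDA-MB-175 at low, HCC1500 at high and HCC1500 at low to ZR-75-30 at low glucose. Only the last 2 of these overlapped, with 160 to 180 against 170 to 193. Of 14636 genes tested in all 3 lines, 486 were lower and called in each, and 982 of 14572 without replicate 3. Ranked by the smallest of the 3 differences, ADAMTS15 came first at -1.09 and FGFR4, a fibroblast growth factor receptor, next at -1.04 (-1.15 and -1.04 without replicate 3), which describes how it was chosen.

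**Figure D1:**
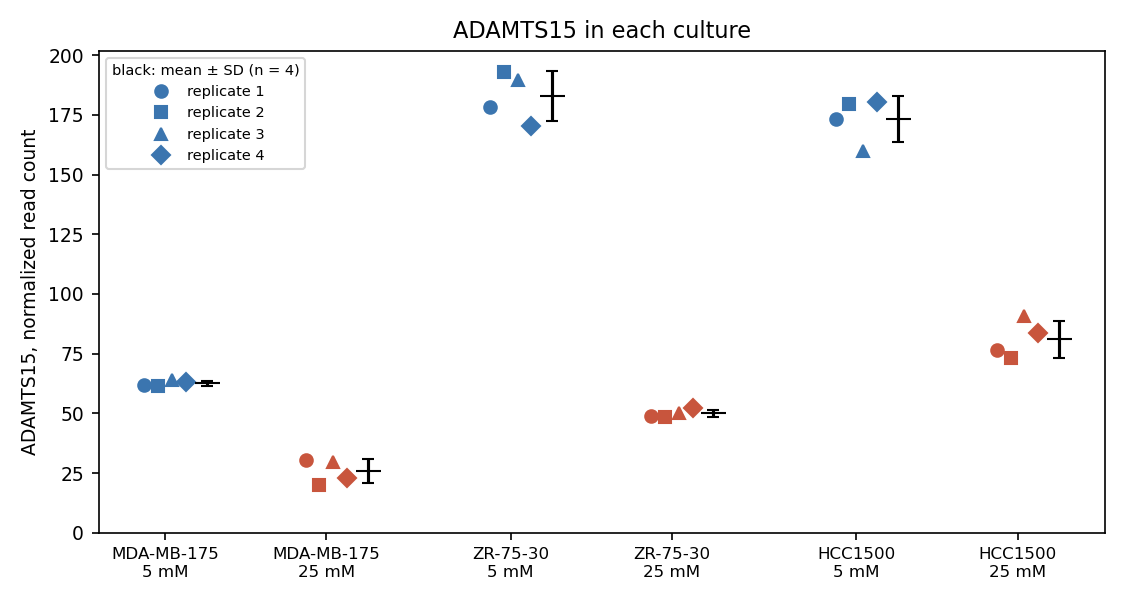
ADAMTS15 normalized read count (vertical axis) in each of the 24 cultures, grouped by cell line and glucose (horizontal axis). Blue points are low and red points high glucose, marker shapes are replicate numbers, and black bars are mean ± SD of 4 cultures. In each line all 4 high glucose cultures sit below all 4 low glucose cultures.

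Levels at low glucose were then compared between lines in 1 limma fit over all 24 cultures, with Benjamini-Hochberg adjustment over 18144 genes. The low glucose cultures also entered the contrast that chose ADAMTS15, and the 10 genes were chosen with earlier results known. P-values between lines, here and below, are therefore a description. The fit shares 1 spread over all 6 groups. ADAMTS15 was higher than in MDA-MB-175 by 1.53 ± 0.10 log2 units (SE) in ZR-75-30 (limma adjusted p = 1.0e-11) and by 1.45 ± 0.10 (SE) in HCC1500 (adjusted p = 1.9e-11), with no overlap between the lines. HCC1500 and ZR-75-30 differed by -0.08 ± 0.10 (SE; adjusted p = 0.53). At low glucose the deposited columns summed to 7.23e+06 to 7.32e+06 in ZR-75-30 and to 5.64e+06 to 5.72e+06 in HCC1500. The order of these lines in ADAMTS15 therefore depends on the scaling. The calls counted 8 of the 10 genes between MDA-MB-175 and ZR-75-30, 9 of 10 between MDA-MB-175 and HCC1500, and 4 of 10 between the remaining pair, where 63.8%, 72.6% and 73.0% of all genes tested were called. Most genes differed between lines, and several of the 10 were tested only because 1 line expresses them, so these counts are not read further.

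The other proteoglycan-cleaving members were restricted to fewer lines. ADAMTS1 (chromosome 21, 28208074 to 28217728, minus strand) had 398, 373, 388 and 419 normalized counts in HCC1500 at low glucose and 546, 535, 420 and 515 at high glucose. All high glucose cultures lay above the low glucose cultures, although replicate 3, at 420, lay just above the highest of them. Means were 394.6 ± 19.2 and 503.8 ± 57.6 (SD, n = 4), a log2 difference of 0.35 ± 0.10 (SE), or 0.43 ± 0.04 (SE) without replicate 3. MDA-MB-175 had 12.9 ± 1.26 at low and 11.9 ± 2.37 at high glucose (SD, n = 4), and the conditions overlapped. ADAMTS1 was listed at 0 in all 8 cultures of ZR-75-30. With 3 reads per library as the floor, the low glucose mean of HCC1500 was at least 214.2-fold higher than ZR-75-30. That of MDA-MB-175 was at least 6.99-fold higher. These bounds, here and below, set a mean against the floor and leave out the spread of the mean. HCC1500 exceeded MDA-MB-175 by 4.84 ± 0.13 log2 units (SE; limma adjusted p = 2.7e-19). The spread in that fit is shared over all 6 groups, and the ZR-75-30 cultures at 0 enter it. The SE and p-value therefore do not measure the spread of HCC1500 and MDA-MB-175 alone.

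ADAMTS5 (chromosome 21, 28290241 to 28339407, minus strand), an aggrecanase whose gene neighbors ADAMTS1, was found in MDA-MB-175 alone. Its cultures had 4.41, 6.70, 3.99 and 7.63 at low glucose and 6.24, 6.25, 4.29 and 7.36 at high glucose, which overlap. It was listed at 0 in all cultures of the other lines. This puts the MDA-MB-175 mean at least 3.08-fold above ZR-75-30 and at least 5.01-fold above HCC1500 at low glucose. ADAMTS9 (chromosome 3, 64501330 to 64673676, minus strand) was barely detected, with at most 2.04 normalized counts, or 4 reads, in MDA-MB-175 and 0 elsewhere. It shares 174 exon bases with the antisense gene ADAMTS9-AS1, and since the strandedness of the counting is not given in the sources used here, their reads cannot be told apart.

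ADAMTS13 (chromosome 9, 136279478 to 136324524, plus strand) was among the genes expressed in every line. MDA-MB-175 had a mean of 21.2 ± 2.64 (SD, n = 4) at low glucose beside 20.6 ± 3.76 at high glucose. ZR-75-30 had 6.22 ± 1.96 beside 5.79 ± 3.12, and the conditions overlapped in both lines. In HCC1500 it was at 16.3, 20.96, 17.3 and 15.9 at low glucose and at 7.08, 9.95, 17.1 and 13.4 at high glucose. Replicate 3, at 17.1, was the only high glucose culture inside the low glucose range. The log2 difference was -0.59 ± 0.26 (SE) with it and -0.77 ± 0.22 (SE) without it. At low glucose ZR-75-30 was below MDA-MB-175 by a log2 difference of -1.66 ± 0.29 (SE; limma adjusted p = 2.4e-05) and below HCC1500, where the difference of HCC1500 from it was 1.41 ± 0.29 (SE; adjusted p = 0.00013). MDA-MB-175 and HCC1500 differed by -0.26 ± 0.29 (SE; adjusted p = 0.44).

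ADAMTS17 (chromosome 15, 100511642 to 100882210, minus strand), in which mutations cause a Weill-Marchesani-like syndrome, was highest in HCC1500. There it was at 45.2, 46.4, 57.9 and 47.8 at low glucose and at 34.2, 35.8, 32.7 and 38.8 at high glucose. The groups did not overlap, and the log2 difference was -0.46 ± 0.13 (SE), or -0.43 ± 0.13 without replicate 3. High glucose had the higher mean in the other lines, at 9.66 ± 1.37 against 6.66 ± 3.30 for MDA-MB-175 and 10.6 ± 4.24 against 8.88 ± 1.79 for ZR-75-30 (SD, n = 4), with overlap in both. At low glucose HCC1500 exceeded MDA-MB-175 by 2.83 ± 0.27 (SE; limma adjusted p = 2.5e-09) and ZR-75-30 by 2.36 ± 0.27 (SE; adjusted p = 4.6e-08). ADAMTS17 shares 431 of its 8390 exon bases with an annotated lncRNA on the opposite strand, so reads in that stretch are uncertain.

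ADAMTS6 (chromosome 5, 64444565 to 64777747, minus strand) was at 6.46, 4.76, 8.44 and 7.75 in HCC1500 at low glucose and at 3.54, 2.49, 5.94 and 2.31 at high glucose. Replicate 3, with 5.94 from 8 reads, lay inside the low glucose range and the other 3 below it. The log2 difference was -0.82 ± 0.29 (SE), or -1.04 ± 0.30 without replicate 3. MDA-MB-175 had 0.40 to 5.60 at low glucose and 1.56 to 2.27 at high glucose, and ZR-75-30 was at 0 in all cultures. Against the floor of ZR-75-30, the low glucose mean of HCC1500 was at least 3.72-fold higher. The mean of MDA-MB-175 was 1.5-fold that floor of 1.84, but its cultures at 0.40 and 1.71 (1 and 3 reads) lay below it. No lower bound is therefore given for MDA-MB-175. HCC1500 exceeded MDA-MB-175 by 1.26 ± 0.32 log2 units (SE; limma adjusted p = 0.0014), with overlapping cultures. As for ADAMTS1, the ZR-75-30 cultures at 0 enter the shared spread behind this SE and p-value.

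ADAMTS3 (chromosome 4, 73146686 to 73434938, minus strand) had similar means in both conditions of MDA-MB-175, 9.49 ± 2.15 and 10.2 ± 1.22 (SD, n = 4). It was lower in the other lines, at 2.98 ± 1.20 and 1.74 ± 1.84 in ZR-75-30 and at 4.01 ± 2.37 and 2.83 ± 0.80 in HCC1500, with overlap between conditions in each. Their 95% intervals of the log2 difference, -1.72 to 0.22 and -1.09 to 0.52, include 0 and also sizeable differences. Without replicate 3 the log2 difference in HCC1500 was -0.21 ± 0.38 (SE), beside -0.29 with it. At low glucose ZR-75-30 was below MDA-MB-175 by a log2 difference of -1.42 ± 0.38 (SE; limma adjusted p = 0.0025) and HCC1500 by -1.16 ± 0.38 (adjusted p = 0.0094), with cultures of HCC1500 overlapping those of MDA-MB-175. ADAMTS3 shares 70 exon bases with an lncRNA on the opposite strand.

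ADAMTS7 and ADAMTS10 were at the limit of detection. ADAMTS7 (chromosome 15, 79051548 to 79103806, minus strand) reached, in MDA-MB-175, 3.42 normalized counts (6 reads) at low and 2.73 at high glucose. It was at 0 in replicate 2 of both conditions and in all HCC1500 cultures, and ZR-75-30 had at most 2 reads in a culture. The annotation holds 3 ADAMTS7 pseudogenes, and reads may be split among these copies. ADAMTS10 (chromosome 19, 8645124 to 8675620, minus strand) had at most 1.95, or 5 reads, in MDA-MB-175, at most 0.67 in ZR-75-30 and 0 in HCC1500. Differences with glucose were not detectable at this depth for these genes.

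**Figure D2:**
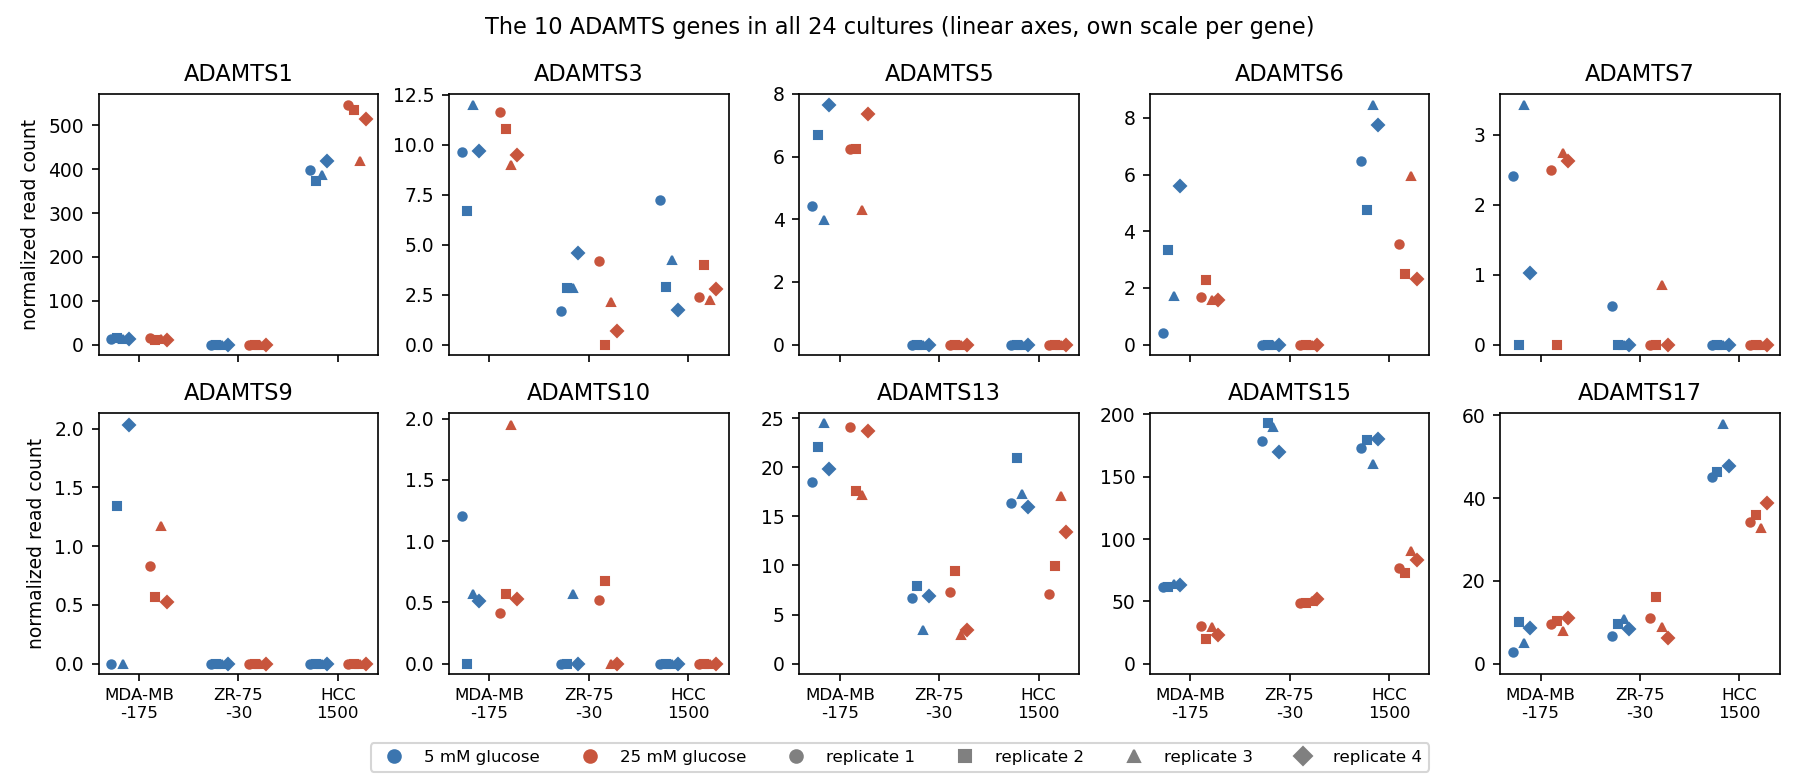
Normalized read count (vertical axes, linear, a separate scale per gene) of the 10 ADAMTS genes in every culture of the 3 lines, with low glucose in blue, high glucose in red and marker shapes for replicate numbers. ADAMTS15 is lower at high glucose in all 3 lines, while ADAMTS1, ADAMTS5 and ADAMTS6 are at 0 in ZR-75-30.

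Compared per kilobase of exon, ADAMTS1 had the highest level in HCC1500 at low glucose, with 54.0 normalized counts per kb against 28.9 for ADAMTS15 and 5.88 for ADAMTS17. In ZR-75-30, ADAMTS15 was at 30.4 per kb and the next, ADAMTS13, at 1.09. In MDA-MB-175, ADAMTS15 was at 10.4 per kb, ADAMTS13 at 3.72 and ADAMTS1 at 1.76. Summed over the 10 genes, the level per kb was 19.4 ± 0.996 (SD, n = 4) at low and 13.4 ± 1.52 at high glucose for MDA-MB-175. ZR-75-30 had 33.1 ± 1.77 and 10.9 ± 0.82, and HCC1500 had 93.2 ± 2.76 and 89.6 ± 6.14. In MDA-MB-175, ADAMTS15 made up 53.9% ± 2.37 of the sum at low and 31.8% ± 3.89 at high glucose. ZR-75-30 had a share of 92.1% ± 1.04 at low and 76.6% ± 8.02 at high glucose, and HCC1500 had 31.0% ± 1.48 and 15.2% ± 2.52, where ADAMTS1 held most of the sum. Without replicate 3 the high glucose sum in HCC1500 was 92.6 ± 0.814 and the share 14.0% ± 1.01 (SD, n = 3).

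**Figure D3:**
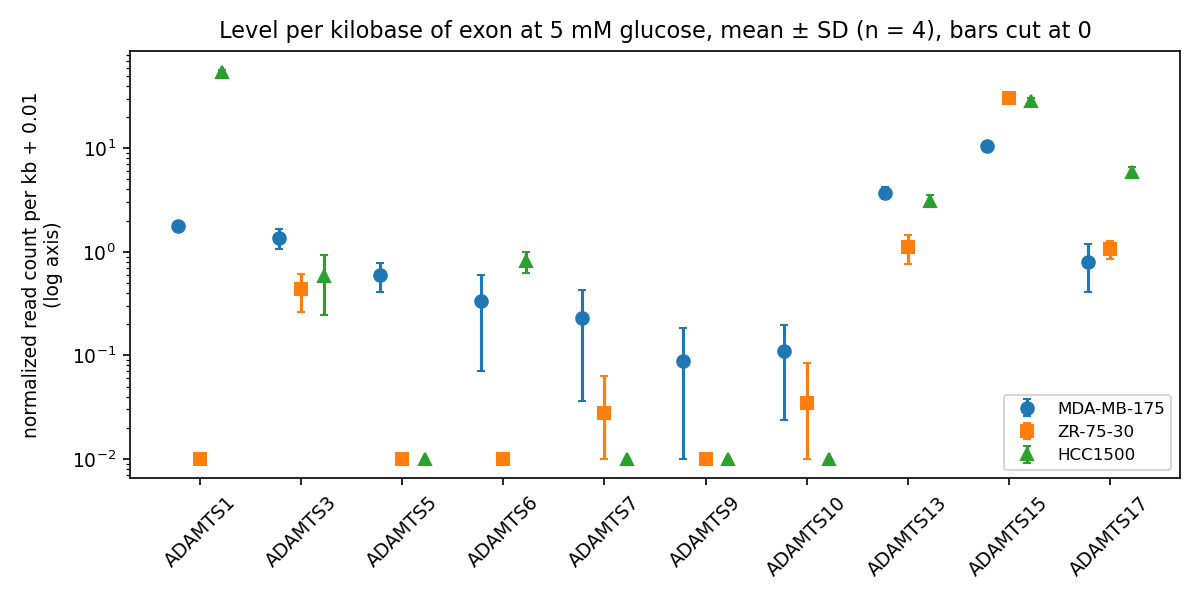
Mean level at low glucose per kilobase of exon (vertical axis, log scale, with 0.01 added) of the 10 ADAMTS genes in the 3 lines, with SD of 4 cultures as bars cut at 0. Points at the bottom are genes listed at 0. ADAMTS15 is at 10.4 to 30.4 per kb in every line, and ADAMTS1 runs from 0 to 54.0.

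Counted with the same call rule as all other genes, an adjusted p under 0.05, ADAMTS15 alone of the 10 tested genes was called in MDA-MB-175, where 25.7% of all genes were called. In ZR-75-30 ADAMTS15 alone of 4 tested was called, beside 46.0% of all genes. In HCC1500, 3 of 6 tested were called (ADAMTS15, ADAMTS17 and ADAMTS1), beside 20.5%. Without replicate 3 the count was 5 of 6, with ADAMTS6 and ADAMTS13 added, beside 58.5% of all genes. The conditions did not overlap for the same 1, 1 and 3 genes, and for the same 5 without replicate 3, where 26.6%, 42.0%, 32.4% and 58.1% of all genes did not overlap. Nothing is read from these counts, since the contrast chose the genes. Under edgeR, median-of-ratios scaling and the replicate block, and without any 1 of the other 7 HCC1500 cultures, ADAMTS15 was the only one called in HCC1500. With DESeq2, with the exon length trend removed and in the fit on all 24 cultures, ADAMTS1 was called too. Rescaling to equal totals called ADAMTS15, ADAMTS17 and ADAMTS6. Over all genes the HCC1500 calls ran from 1964 to 9504 under the alternatives. All of these reuse the cultures that chose ADAMTS15, and nothing is read from them either.

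**Figure D4:**
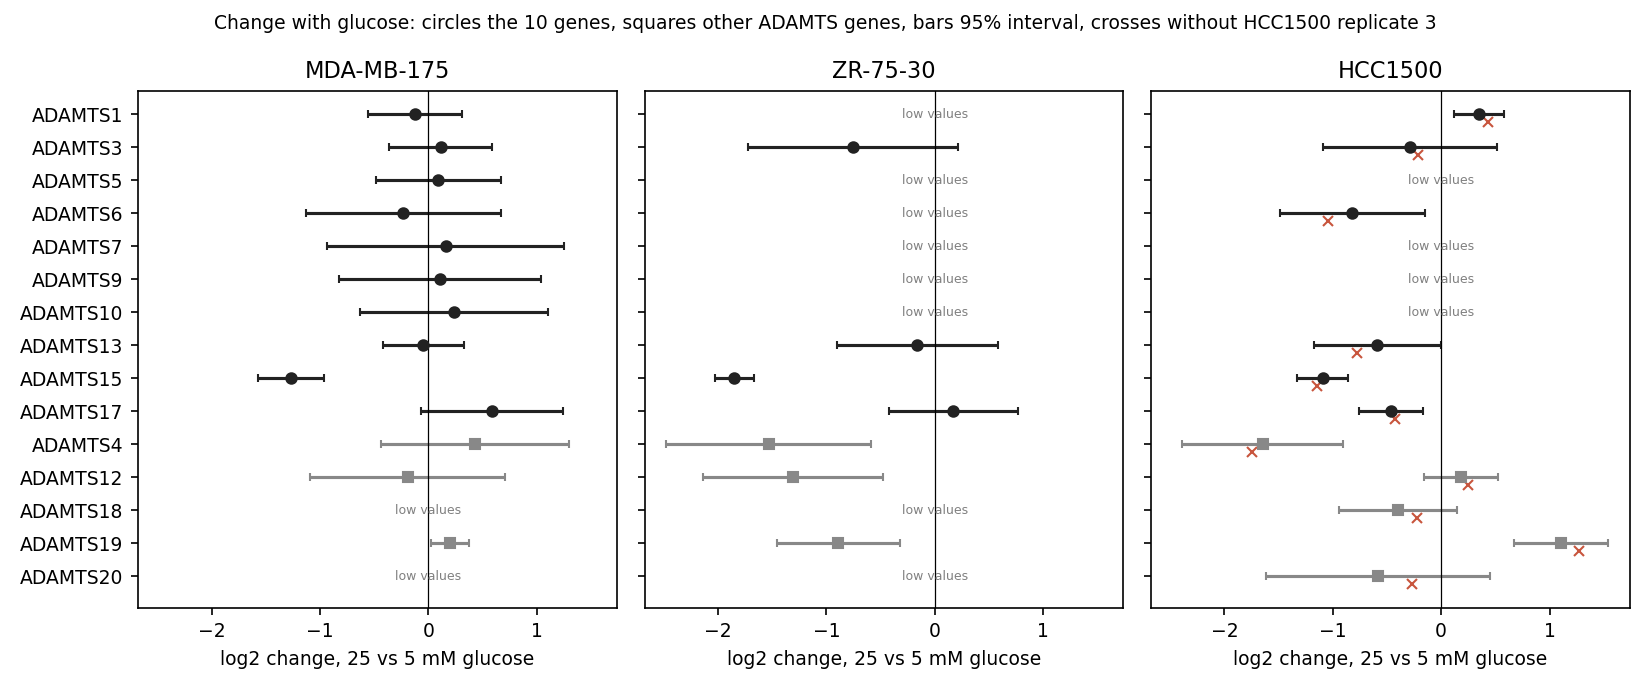
Difference between high and low glucose, log2(value + 1) scale (horizontal axis), of the 10 ADAMTS genes (circles) and 5 further ADAMTS genes (squares) in each line, with 95% intervals. Crosses in HCC1500 leave out high glucose replicate 3, and low values marks genes below the filter. The ADAMTS15 interval lies below 0 in all 3 lines, which describes how the gene was chosen in these same cultures.

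ADAMTS6, ADAMTS13 and ADAMTS17 were lower at high glucose together in HCC1500 once replicate 3 was left out, and their promoter sequences are shown for that reason. RefSeq entries on GRCh38.p14, from 250 bases before to 50 bases after each start, matched 6 of the 10 genes (ADAMTS3, ADAMTS6, ADAMTS7, ADAMTS10, ADAMTS13 and ADAMTS17). Capitals mark matches to 4 motifs searched on both strands. The GC box, bound by SP1-like factors, was spelled GGGCGG. The E-box, bound by MYC and related factors, was spelled CACGTG. The TATA box of core promoters was spelled TATAAA. The AP-1 site, bound by FOS and JUN, was spelled TGANTCA. A match of 1 motif may overlap a match of another.
ADAMTS6, chr5:65481871-65482170, minus strand: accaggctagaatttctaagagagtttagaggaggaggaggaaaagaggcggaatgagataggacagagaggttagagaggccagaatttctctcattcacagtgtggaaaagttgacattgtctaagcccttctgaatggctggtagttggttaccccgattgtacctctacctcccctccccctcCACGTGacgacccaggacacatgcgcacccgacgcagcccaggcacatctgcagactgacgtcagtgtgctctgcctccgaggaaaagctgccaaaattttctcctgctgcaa
ADAMTS13, chr9:133422117-133422416, plus strand: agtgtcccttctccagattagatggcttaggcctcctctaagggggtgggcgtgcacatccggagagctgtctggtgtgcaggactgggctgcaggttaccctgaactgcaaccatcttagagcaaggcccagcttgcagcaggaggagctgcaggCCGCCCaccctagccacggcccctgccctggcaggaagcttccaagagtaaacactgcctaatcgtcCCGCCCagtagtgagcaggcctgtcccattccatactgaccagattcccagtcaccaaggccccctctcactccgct
ADAMTS17, chr15:100341926-100342225, minus strand: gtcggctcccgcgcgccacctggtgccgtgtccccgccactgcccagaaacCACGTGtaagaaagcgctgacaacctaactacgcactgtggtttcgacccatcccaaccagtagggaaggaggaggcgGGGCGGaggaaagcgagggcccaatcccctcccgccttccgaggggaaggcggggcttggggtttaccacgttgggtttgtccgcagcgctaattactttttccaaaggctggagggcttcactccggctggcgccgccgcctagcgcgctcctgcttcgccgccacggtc
ADAMTS6 and ADAMTS17 each hold 1 E-box, a motif found in 7.26% of 35116 promoters of this length. ADAMTS13 holds 2 GC boxes and ADAMTS17 holds 1, against 45% of promoters with at least 1. None of the 3 holds the TATA box or AP-1 letters, which occur in 11.5% and 7.71% of promoters. Of the other genes with an entry, ADAMTS3 holds 1 GC box and ADAMTS7 holds 7. ADAMTS10 has 1 entry with no match and 1 with 6 GC boxes and 1 TATA box, and none of these genes holds an E-box. The 3 genes shown were grouped by their glucose values, in a setting where 58.5% of all genes were called. The shares of promoters are therefore not read further. These matches describe the letters and not binding.

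A further 8 ADAMTS genes were in the table, of which ADAMTS2, ADAMTS14 and ADAMTS16 were at or near 0 everywhere. ADAMTS4, an aggrecanase close to ADAMTS15 in substrates, fell from 20.6 ± 2.10 to 6.40 ± 2.70 (SD, n = 4) in HCC1500, by 1.65 on the log2 scale (SE 0.32; limma adjusted p = 0.0083), with no overlap, and by 1.74 without replicate 3. It fell from 2.79 to 0.26 in ZR-75-30 (log2 difference -1.53 ± 0.45, limma adjusted p = 0.0092), where the conditions overlapped. The low glucose cultures there had 5, 1, 7 and 5 reads and the high glucose cultures 2, 0, 0 and 0. In MDA-MB-175 at most 2 reads were found in any culture. ADAMTS19 rose from 52.3 ± 7.63 to 114.8 ± 24.8 in HCC1500 (1.10 ± 0.19; adjusted p = 0.0046), and by 1.27 ± 0.11 without replicate 3. It fell from 9.11 ± 0.59 to 4.55 ± 1.17 in ZR-75-30 (-0.89 ± 0.27; adjusted p = 0.011, and 0.055 with DESeq2) and was at 125.3 ± 7.84 and 144.2 ± 14.4 in MDA-MB-175 (0.20 ± 0.08; adjusted p = 0.092). The response of ADAMTS19 differed between lines (limma interaction F test, adjusted p = 2.9e-06), a test that 29.3% of all genes passed. ADAMTS12 fell in ZR-75-30 from 3.72 ± 0.98 to 1.04 ± 0.91 (-1.31 ± 0.40; adjusted p = 0.011, and 0.064 with DESeq2) and was at 14.8 and 17.0 in HCC1500 (adjusted p = 0.44, and 0.26 without replicate 3). ADAMTS18 and ADAMTS20 were found in HCC1500, where neither passed. Their log2 differences were -0.40 and -0.58 (limma adjusted p = 0.28 and 0.42), or -0.22 and -0.26 without replicate 3 (adjusted p = 0.36 and 0.54).

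Around the proteases, 8 lists covered 82 genes, the other ADAMTS genes included, of which 74 were in the table. In MDA-MB-175, 16 of 59 tested were called (9 higher and 7 lower; 27.1%, beside 25.7% of all genes), in ZR-75-30 26 of 49 (16 higher and 10 lower; 53.1%, beside 46.0%) and in HCC1500 17 of 49 (5 higher and 12 lower; 34.7%, beside 20.5%). Without replicate 3, 25 of 49 were called in HCC1500 (51.0%, beside 58.5%). The median log2 difference over these genes was 0.06, 0.06 and -0.27, beside -0.02, 0.01 and -0.06 over all genes. Without replicate 3 it was -0.33 in HCC1500, beside -0.12.

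Among inhibitors and clearance receptors of the proteases, the calls were rises in MDA-MB-175 (3 of 7 tested) and also in ZR-75-30 (5 of 7), and falls in HCC1500 (2 of 4), where 25.7%, 46.0% and 20.5% of all genes were called. Without replicate 3, 3 of 4 were called in HCC1500, beside 58.5%, the third being TIMP1, named after its values were seen, at -0.57 instead of -0.21. TIMP3, the matrix-bound inhibitor that blocks several ADAMTS proteases, had, in MDA-MB-175, 1582, 1658, 1658 and 1656 normalized counts (low glucose) and 2782, 2731, 2686 and 2642 (high glucose). In HCC1500 it was at 178, 184, 188 and 174 at low glucose and 92.6, 71.1, 101 and 91.9 at high glucose. Its log2 difference was 0.73 ± 0.04 (SE; limma adjusted p = 8.9e-10) in MDA-MB-175, 1.003 ± 0.08 (adjusted p = 4.7e-09) in ZR-75-30 and -1.02 ± 0.12 (adjusted p = 0.00072; -1.09 without replicate 3) in HCC1500, and the responses differed between lines (interaction F test, adjusted p = 6.6e-11). ADAMTS15 was lower in all 3 lines, so TIMP3 moved with it in HCC1500 and against it in the other lines. A2M, a broad plasma protease trap, had 264 ± 12.7 at low and 713.6 ± 28.6 at high glucose in MDA-MB-175 (SD, n = 4), a rise (1.43 ± 0.05; adjusted p = 1.2e-11). It rose too in ZR-75-30, where the means were 55.0 and 104.1 (0.91 ± 0.10; adjusted p = 9.2e-07), whereas HCC1500 had almost none. TIMP2, named after its values were seen, rose by 0.49 (MDA-MB-175) and 1.24 (ZR-75-30), with almost none in HCC1500. In MDA-MB-175 it was at 451 to 498 at low and 641 to 686 at high glucose. That call was lost in the limma fit on all 24 cultures (adjusted p = 0.28), where the HCC1500 cultures, at 0 to 1.85, enter the shared spread. LRP1, the receptor that takes up ADAMTS proteases, was also named after its values were seen: it rose by 0.34 in ZR-75-30 (a call lost in the fit on all 24 cultures, adjusted p = 0.092) and changed by -1.002 in HCC1500 (-0.79 without replicate 3).

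Genes for activation and O-fucosylation, which cut off the prodomain and modify the thrombospondin repeats, were called in 3 of 6 in MDA-MB-175 (2 higher), 2 of 5 in ZR-75-30 (1 higher) and 5 of 5 in HCC1500 (1 higher, also without replicate 3), beside 25.7%, 46.0% and 20.5% of all genes, and 58.5% without replicate 3. PCSK7, a proprotein convertase, fell in all 3 lines by 0.31, 0.46 and 0.41 on the log2 scale (limma adjusted p = 0.011, 3.4e-05 and 0.047). POFUT2, the fucosyltransferase of thrombospondin repeats, rose by 0.25, 0.43 and 0.28 (adjusted p = 0.021, 0.0012 and 0.044). Without replicate 3 the HCC1500 differences were -0.53 for PCSK7 and 0.31 for POFUT2. In MDA-MB-175 both calls were lost in the fit on all 24 cultures (limma adjusted p = 0.053 for PCSK7 and 0.059 for POFUT2), and that of POFUT2 without high glucose replicate 4 (adjusted p = 0.085). In HCC1500 the PCSK7 and POFUT2 calls were lost without any 1 of the other 7 cultures and with the replicate block. The PCSK7 call was also lost with the exon length trend removed, and the POFUT2 call with edgeR and with rescaling to equal totals or by median-of-ratios factors. At high glucose, PCSK7 was at 313 in replicate 3 beside 223 to 224 in the other cultures.

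Among matrix substrates 3 of 18 were called in MDA-MB-175, 7 of 13 in ZR-75-30 and 4 of 14 in HCC1500, or 7 of 14 without replicate 3, beside 25.7%, 46.0%, 20.5% and 58.5% of all genes. TFPI2, a serine protease inhibitor that ADAMTS1 can cut, rose in every line. MDA-MB-175 had a mean of 26.4 ± 2.59 at low and 54.8 ± 7.40 at high glucose (SD, n = 4). ZR-75-30 had 8.85 ± 3.44 and 25.8 ± 4.16, and HCC1500 had 70.7 ± 5.69 and 225.3 ± 67.5. The log2 differences were 1.02 ± 0.14 (limma adjusted p = 3.6e-05), 1.5 ± 0.25 (adjusted p = 8.7e-05) and 1.62 ± 0.19 (adjusted p = 0.00062), the last being 1.43 without replicate 3. The collagen genes COL1A2 in MDA-MB-175 (-0.78 ± 0.20; adjusted p = 0.0086) and COL2A1 in ZR-75-30 (-0.84 ± 0.29; adjusted p = 0.025) fell, and the COL2A1 call was lost without any of 4 single cultures.

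Of the hyaluronan partners, HAS3, a hyaluronan synthase, fell in all 3 lines, by 0.61, 1.13 and 0.56 on the log2 scale (limma adjusted p = 0.00021, 0.016 and 0.011), from 107, 4.30 and 95.6 at low glucose, and by 0.50 in HCC1500 without replicate 3. Genes of this list were called in 2 of 3, 3 of 3 and 2 of 3 in the 3 lines, and in 2 of 3 in HCC1500 without replicate 3. The call in ZR-75-30 was lost without low glucose replicate 4 (adjusted p = 0.074). CD44, the hyaluronan receptor, rose from 395.5 ± 20.5 to 1168 ± 32.4 (SD, n = 4) in ZR-75-30 (1.56 ± 0.04; adjusted p = 1.2e-14). MDA-MB-175 showed a rise of 0.44 ± 0.14 (adjusted p = 0.029) that was lost without any of 4 single cultures, while CD44 changed by -0.49 ± 0.08 in HCC1500 (adjusted p = 0.0029; -0.53 without replicate 3), and the responses differed between lines (interaction F test, adjusted p = 2.6e-10). MMP7, a matrix metalloproteinase, fell in MDA-MB-175 by 0.86 (adjusted p = 0.045), a call that DESeq2 (adjusted p = 0.075) and edgeR (adjusted p = 0.053) did not make and that was lost without any of 6 single cultures. Of the sheddases of the related ADAM family, 3 of 8 were called in MDA-MB-175, 3 of 6 in ZR-75-30 and 0 of 5 in HCC1500 with limma (0 also at an unadjusted p under 0.05, and with edgeR and DESeq2), where 2 of 5 were called without replicate 3. The other matrix metalloproteinases brought the calls of their list to 1 of 11, 2 of 8 and 1 of 9 in the 3 lines, and to 3 of 9 in HCC1500 without replicate 3. Of the ADAMTS-like proteins, which lack the protease domain, 1 of 3, 1 of 4 and 1 of 4 were called. Each time it was ADAMTSL3, named after its values were seen, with log2 differences of -0.42, 0.74 and -0.96 (-0.75 without replicate 3). Its call was lost in MDA-MB-175 in the fit on all 24 cultures (adjusted p = 0.064) and in HCC1500 with the replicate block (0.061) and without low glucose replicate 3 (0.052). These list counts stand beside 25.7%, 46.0% and 20.5% of all genes, and 58.5% without replicate 3.

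**Figure D5:**
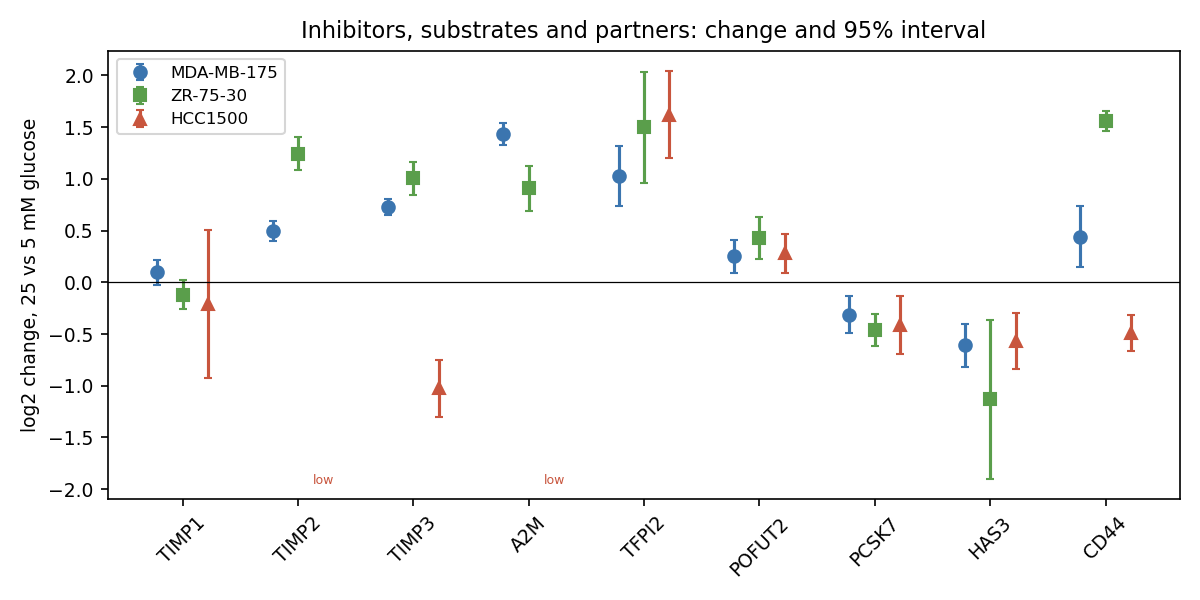
Difference between high and low glucose on the log2(value + 1) scale (vertical axis) for 9 inhibitors, substrates and partners (horizontal axis) in MDA-MB-175 (circles), ZR-75-30 (squares) and HCC1500 (triangles), with 95% intervals, where low marks genes below the filter. TIMP3 and CD44 lie below 0 in HCC1500 and above 0 in the other lines, and TFPI2 lies above 0 in all 3.

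The 9 genes whose start lies within 1 Mb of that of ADAMTS15 did not share its direction in all lines. In MDA-MB-175, 1 of 8 tested was called (higher), ZR-75-30 had 5 of 8 (3 higher, 2 lower), while HCC1500 had 0 of 9 with limma (2 at an unadjusted p under 0.05), 0 with edgeR, 1 with DESeq2 and 5 of 9 with limma without replicate 3. Of all genes, 25.7%, 46.0%, 20.5% and, without replicate 3, 58.5% were called. The nearest upstream gene in the table, ZBTB44, has its start at -133728 bases relative to that of ADAMTS15 and had log2 differences of 0.05, 0.23 and 0.03. Without replicate 3 that in HCC1500 was 0.15 (limma adjusted p = 0.042). ST14, a membrane serine protease, fell in ZR-75-30 (-0.36; limma adjusted p = 0.00039), and SNX19 likewise (-0.28; adjusted p = 0.0018), with TMEM45B higher in MDA-MB-175 (0.38; adjusted p = 3.3e-05) and ZR-75-30 (0.22; adjusted p = 4.5e-05). Of these, the calls of ZBTB44 and ST14 in ZR-75-30 and of TMEM45B in both lines were lost in the fit on all 24 cultures (adjusted p = 0.086, 0.0501, 0.48 and 0.65). In HCC1500, ST14 was at -0.29 and SNX19 at -0.02, and without replicate 3 at -0.49 (adjusted p = 4.3e-08) and 0.11 (adjusted p = 0.011).

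The genes whose values followed ADAMTS15 most closely were found over 10896 genes with a mean of at least 10 in each line, after centring each gene on its line. Over the 24 cultures, Pearson r with ADAMTS15 was 0.963 for SFXN2, a mitochondrial carrier, 0.952 for FRMD4A, a scaffold protein, 0.952 for HEATR3, 0.952 for POLD3, a subunit of DNA polymerase delta, and 0.951 for SRSF1, a splicing factor. The points share libraries, depth and the glucose contrast, so these are a description, and without replicate 3 of HCC1500 the same 5 had r of 0.952 to 0.968. SFXN2 had a low and a high glucose mean of 187.3 and 120.3 (MDA-MB-175), 154.9 and 69.4 (ZR-75-30), and 274.1 and 139.4 (HCC1500). Its log2 differences of -0.64, -1.15 and -0.97 were each smaller in size than those of ADAMTS15.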

How the data were processed

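RNA was sequenced from 24 cultures in 6 groups, taken from the sample titles. Each deposited value is a signal for a gene in a culture. For the patient tumors, the study's methods describe trimming with Trimmomatic and alignment by TopHat to hg19 with Ensembl annotation. Their passage on the cell lines does not restate these steps, so whether they apply to this table is not known. The submitters' processing notes name hg38 and edgeR. The methods describe CPM made by edgeR with TMM factors, without naming this table, whose columns sum to between 5559394 and 7594840 and not to the total of a CPM table, so its scaling could not be tied to that step. Every value was a whole read number divided by 1 factor per sample (within 0.01 of a whole number), so reads were recovered. All value columns belonged to a sample. In 9 rows the symbol was split over cells and values were taken from the row's end.

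Each line was fitted on its 8 cultures with limma 3.58.1 (R 4.3.3) on log2(value + 1), with genes at 0.5 or more in at least 4 samples, and called at a Benjamini-Hochberg adjusted p under 0.05 over all genes tested. Contrasts between lines and the interaction F test used 1 fit on 24 samples, and the interaction test was added later. edgeR 4.0.16 and DESeq2 1.42.0 on recovered reads, scaling, pseudocount, filter, replicate block, exon length and left-out cultures were alternatives. The steps were tested on simulated data. Log2(value + 1) understates changes of low genes.

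The members and lists were chosen with earlier results of these data known. Named were all 10 genes, the other ADAMTS genes, list genes called alike in all 3 lines, per line the called list genes with the 2 strongest changes in each direction (mean of at least 5), the 5 genes most correlated with ADAMTS15, and genes within 1 Mb. Coordinates are GRCh37 (GENCODE, 97.2% of genes matched). The 95% intervals of differences come from the limma fits and measure the spread between cultures, and the floors (3 reads) cover counting error only.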

Additional observations from a re-analysis of the deposited data

Results flagged for a closer look

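A gap of 1 culture from its group, by Dixon's 95% criterion for 4 samples, was found in 20 of 198 groups screened (10.1%). The nominal rate of the criterion is about 1 in 20, but the share cannot be set against it. Groups share libraries, some hold few reads, and some genes were named after their values were seen. Groups were screened for the genes named here where the highest culture had 3 or more reads. In 7 of the 20 the culture was HCC1500 high glucose replicate 3: ADAMTSL3 (18.6), PCSK7 (313), SNX19 (425), ST14 (795), TFPI2 (326), THBS1 (1993) and TIMP1 (542). The remaining 13 lay in other cultures. In MDA-MB-175 at high glucose these were ADAMTS6 (2.27 in replicate 2), ADAMTS7 (0 in replicate 2) and ADAMTS10 (1.95 in replicate 3), each with 5 reads or fewer, and ST14 (876 in replicate 1). In MDA-MB-175 at low glucose they were ADAMTS12 (0.51 in replicate 4), ST14 (724 in replicate 4) and TIMP3 (1582 in replicate 1). In ZR-75-30 at high glucose they were ST14 (332) and ZBTB44 (289), both in replicate 4. In HCC1500 they were ADAMTS4 (2.36 in replicate 1) and TIMP2 (1.85 in replicate 4) at high glucose, and TIMP2 (1.14 in replicate 1) and TMEM45B (4.45 in replicate 2) at low glucose.

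Calls went in opposite directions in 2 lines for 7 of the list genes. The genes were taken for these calls, so their interaction p-values, here and above, describe that choice in the same cultures. Of all genes, 29.3% passed the interaction test, and the share with opposite calls was not counted. By the limma interaction F test these were TIMP3 (adjusted p = 6.6e-11), CD44 (adjusted p = 2.63e-10), ADAMTS19 (adjusted p = 2.88e-06), ADAMTSL3 (adjusted p = 4.75e-06), FURIN (adjusted p = 3.92e-05), LRP1 (adjusted p = 4.23e-05) and THBS1 (adjusted p = 7.7e-05). Without HCC1500 high glucose replicate 3 the same test gave adjusted p = 2.4e-13 for TIMP3, 4.2e-12 for CD44, 1.9e-08 for ADAMTS19, 5.0e-09 for ADAMTSL3, 1.5e-06 for FURIN, 2.0e-07 for LRP1 and 7.5e-11 for THBS1. FURIN, a proprotein convertase, had log2 differences of 0.45 (MDA-MB-175), -0.20 (ZR-75-30) and -0.38 (HCC1500), and its call in HCC1500 was lost without any of 3 single cultures and with the replicate block. THBS1, the thrombospondin gene, had -0.08, -0.16 and 0.53 in the same order, and its calls were lost in ZR-75-30 in the fit on all 24 cultures and in HCC1500 with rescaling to equal totals. FURIN, THBS1, LRP1 and ADAMTSL3 were named after their values were seen.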

How the results depend on the processing

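ADAMTS15, chosen for its direction in these cultures, kept it in each line under every alternative run. Its log2 differences were -1.35 to -1.15 in MDA-MB-175, -1.89 to -1.77 in ZR-75-30 and -1.17 to -1.01 in HCC1500. The smallest size in ZR-75-30, -1.772, came with a pseudocount of 5. The number of the 10 genes called in HCC1500, 3, became 1 with median-of-ratios scaling, with edgeR and with the replicate block, and ran from 1 to 5 when each culture was left out (5 without high glucose replicate 3). It was 2 with DESeq2, with the exon length trend removed and in the fit on all 24 samples. Calls of the 10 genes between lines at low glucose ran from 6 to 9 for MDA-MB-175 against ZR-75-30. They ran from 6 to 9 for MDA-MB-175 against HCC1500 and from 4 to 5 for the remaining pair. Pathway genes called in MDA-MB-175, 16, became 9 in the fit on all 24 samples, and those in HCC1500, 17, became 11 with the replicate block. The cause was not tested. Of the genes named, the block ended the calls of PCSK7, POFUT2, HAS3, FURIN and ADAMTSL3 in HCC1500 and of MMP7 in MDA-MB-175. SNX19 in HCC1500, at -0.02, ran from -0.079 to 0.11 with a culture left out, 0.11 being without high glucose replicate 3. Over all genes, calls in MDA-MB-175 went from 4368 to 2011 in the fit on 24 samples. In HCC1500 they went from 3350 to 5842 in that fit, to 1964 with the block, and to between 2015 and 9504 with a culture left out, 9504 being without high glucose replicate 3. The share of HCC1500 calls that were higher was 36.4% as deposited, 30.4% with rescaling to equal totals, 48.9% with median-of-ratios scaling, 47.8% with edgeR, 52.4% with DESeq2 and 52.1% with the exon length trend removed. No scaling moved the median of all genes by 0.1 log2 units or more. Same-numbered cultures deviated together with correlations of -0.04 to 0.11, so numbers were taken as names only. Low reads limit ADAMTS7, ADAMTS9 and ADAMTS10, each with at most 7 reads in a culture.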
